A study of Mus musculus with 30 samples.

Results

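The Schlafen genes of the mouse are a family of interferon-inducible genes that lie side by side on chromosome 11. Their messenger RNA was followed in cultured dendritic cells that were derived from the marrow of mice. The members were the rows of the gene count table with the symbols Slfn1, Slfn2, Slfn3, Slfn4, Slfn5, Slfn8 and Slfn9, 7 of 25611 rows, and all 7 were kept by the filter on low counts, which left 14808 genes for testing. Slfn4 had at least 10 counts in every library only in the 3 of the 10 groups where it was highest. Slfn1 did in 8 groups, and the other members in all 10.

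Schlafen proteins share an N-terminal core that, in several members, cuts or binds transfer RNA. Short members (Slfn1 and Slfn2) hold little beyond this core, intermediate members (Slfn3 and Slfn4) carry a further linker domain, and long members (Slfn5, Slfn8 and Slfn9) end in a domain that resembles RNA helicases. Type I interferon raises many of them in myeloid cells and lymphocytes, and the family is best known for restraining cell growth in thymocytes, keeping T cells quiescent and limiting viruses.

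Cells were differentiated from marrow of Rubcn knockout mice (KO) or wild-type mice (WT) with 200 ng/ml FLT3L, the ligand that drives plasmacytoid and conventional dendritic cells from marrow, for 6 to 7 days. Rubcn encodes Rubicon, a protein needed for LC3-associated phagocytosis. Cells of each genotype were left untreated, or received OVA protein (the labels give the abbreviation) or apoptotic Jurkat cells. Both exposures lasted 30 min or 4 h, and each of the 10 groups held 3 libraries. The labels give no time for the untreated cells, so exposure and added time in culture cannot be told apart against them. Jurkat is an established line of human leukaemic T cells. Strain, age, the kind of knockout allele and whether libraries came from separate mice are not given in the labels, so that p-values measure the spread between these libraries, which may be technical.

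Total counts of the 30 libraries lay between 9.73 M and 51.6 M (median 44.9 M), and the shallowest was KO OVA 30 min replicate 3. Rubcn counts remained in the KO libraries, at 73.6% of the WT mean in untreated cells (log2 fold change -0.44, edgeR quasi-likelihood FDR 1.69e-07) and at 84.7%, 84.7%, 78.4% and 81.5% at OVA 30 min, Jurkat 30 min, OVA 4 h and Jurkat 4 h. A count over the whole gene does not show which exons they came from. In untreated WT libraries the 6 pan-dendritic markers summed to 19617 to 22352 CPM (the usual library-size-scaled count), the 10 plasmacytoid markers to 4937 to 5049 CPM, and the 8 markers each of conventional types 1 and 2 to 2832 to 3057 and 1602 to 1657 CPM. Lists of other cells stood at 3810 to 4233 CPM (monocyte or macrophage), 137 to 156 CPM (neutrophil) and 22.6 to 25.2 CPM (B-lineage), and no gene of these lists was at 0 in a whole group. The library KO Jurkat 30 min replicate 1 stood apart from its group. Its 40 listed interferon-stimulated genes summed to 3765 CPM, against 2331 and 2476 CPM in replicates 2 and 3, and tests of that group are given with and without it. WT Jurkat 4 h replicate 2 also summed higher than its group, at 44483 CPM against 36401 and 38785 CPM in replicates 1 and 3.

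Sequences upstream of the transcription starts are shown because the members rose together, and because interferon acts on genes through short promoter elements. The core of the interferon-stimulated response element (GAAA, any 2 bases, GAAA) was searched on both strands of 300 bases around each RefSeq start (250 before and 50 after, GRCm38.p6). It occurred in promoters of 3 of the 7 members, Slfn5, Slfn8 and Slfn9, all long, and in 3.44% of 32851 promoters and 3.99% of 27025 genes of that table. The letters TTCNNNGAA, the core of the gamma-activated site, occurred in none of the members and in 8.3% of promoters. The 250 bases before the start are printed 5′ to 3′ in the direction of the gene, with the match in capitals. In Slfn5 the match lies 155 to 146 bases before the start. In Slfn9 it lies 45 to 36 and in Slfn8 48 to 39 bases before, read from the opposite strand as GAAAACGAAA. A second RefSeq start of Slfn8 places that site 136 to 127 bases before it. Slfn2, the member with the highest level per length, and Slfn4, the member with the largest response, are shown as members without a match.
Slfn5 (chr11:82951852-82952101, plus strand): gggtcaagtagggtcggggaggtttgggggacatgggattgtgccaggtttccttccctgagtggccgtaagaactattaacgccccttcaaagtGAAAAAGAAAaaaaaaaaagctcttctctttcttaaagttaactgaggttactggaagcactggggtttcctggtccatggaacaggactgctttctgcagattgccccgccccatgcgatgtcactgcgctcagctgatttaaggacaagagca
Slfn9 (chr11:82991831-82992080, minus strand): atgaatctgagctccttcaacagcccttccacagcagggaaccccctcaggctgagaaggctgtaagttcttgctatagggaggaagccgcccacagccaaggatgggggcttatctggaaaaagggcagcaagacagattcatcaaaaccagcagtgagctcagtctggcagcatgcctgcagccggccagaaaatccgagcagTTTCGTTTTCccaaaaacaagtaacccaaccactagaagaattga
Slfn8 (chr11:83020811-83021060, minus strand): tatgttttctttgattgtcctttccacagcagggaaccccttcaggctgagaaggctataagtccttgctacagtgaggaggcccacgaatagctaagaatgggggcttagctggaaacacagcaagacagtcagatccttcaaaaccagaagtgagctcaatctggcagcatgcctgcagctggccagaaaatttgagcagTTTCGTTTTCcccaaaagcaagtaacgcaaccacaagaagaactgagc
Slfn2 (chr11:83064862-83065111, plus strand): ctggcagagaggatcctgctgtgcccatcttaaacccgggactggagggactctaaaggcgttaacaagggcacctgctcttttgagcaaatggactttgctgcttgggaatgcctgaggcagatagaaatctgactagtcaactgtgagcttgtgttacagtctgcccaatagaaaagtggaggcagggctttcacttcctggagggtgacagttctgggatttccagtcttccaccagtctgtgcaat
Slfn4 (chr11:83174936-83175185, plus strand): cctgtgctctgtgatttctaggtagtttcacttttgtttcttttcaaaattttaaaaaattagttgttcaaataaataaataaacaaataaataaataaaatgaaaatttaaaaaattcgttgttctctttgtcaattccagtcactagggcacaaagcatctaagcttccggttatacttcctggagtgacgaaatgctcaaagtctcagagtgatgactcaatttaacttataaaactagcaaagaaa
A match of letters is a description of the window and no evidence of binding, and its absence says only that these letters are not there. The Slfn8 and Slfn9 promoters were 83.3% identical over 245 aligned bases, and the capitalised letters are the same in both.

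Levels differed widely between members. In untreated WT cells, CPM divided by the length of the gene's merged exons in kilobases (kb) put Slfn2 first at 148 ± 1.23 CPM per kb (SD, n = 3). Slfn5 followed at 54.99 ± 2.22, Slfn8 at 23.8 ± 0.769, Slfn9 at 3.51 ± 0.107, Slfn3 at 1.72 ± 0.118, Slfn1 at 0.303 ± 0.0709 and Slfn4 at 0.0465 ± 0.00904 CPM per kb. The ranges of neighbours in this order did not overlap. After 4 h with Jurkat cells the WT order was Slfn2 (1070 CPM per kb), Slfn5 (738), Slfn8 (193), Slfn9 (34.9), Slfn1 (17.7), Slfn3 (13.6) and Slfn4 (6.65), so that Slfn1 had passed Slfn3. The libraries of Slfn1 and Slfn3 overlapped there, at 15.4 to 21.5 and 12.3 to 15.5 CPM per kb. In KO the same 2 genes stood at 10.5 and 9.75 CPM per kb.

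**Figure D1:**
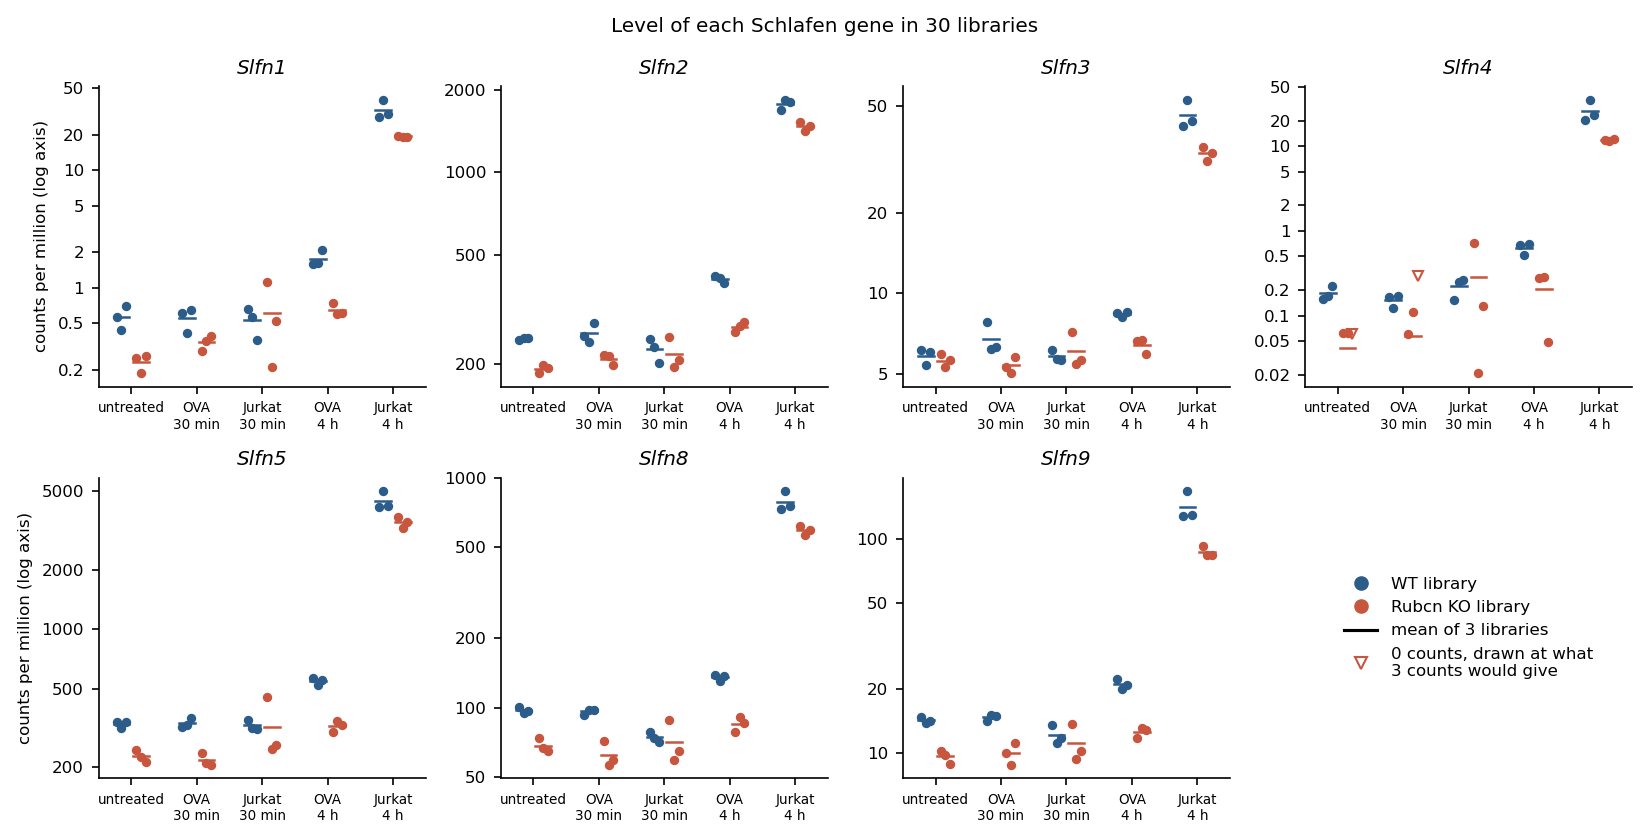
Level of each Schlafen gene (CPM on TMM-scaled library sizes, log axis that differs between panels) in every library of the 10 groups, blue for WT and red for Rubcn KO, with a line at the mean of 3 libraries. Every member is highest after 4 h with Jurkat cells, KO lies under WT in most conditions, and at Jurkat 30 min a single KO library lies above the others, at 455 CPM for Slfn5.

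In untreated cells 4 of the 7 members were lower in KO than in WT at an FDR under 0.05 in edgeR's quasi-likelihood test: the short Slfn2 and the long Slfn5, Slfn8 and Slfn9. None was higher. Of all genes tested, 9.97% were called in this comparison, 3.97% as lower. The median log2 fold change of the members was -0.54, against -0.01 for all genes.

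Slfn5, whose human counterpart has been studied as a nuclear repressor of transcription, was at 339.6, 316 and 339.7 CPM in the WT libraries and at 246, 225 and 213 CPM in KO. Every KO library lay under every WT library, and the KO mean was 68.7% of WT (log2 fold change -0.54, SE 0.13, edgeR FDR 0.00628). Slfn8, a long member, was at 101, 94.6 and 97.0 CPM in WT and 74.0, 66.6 and 64.5 CPM in KO (log2 -0.51, SE 0.10, edgeR FDR 0.000626). Slfn9, its near copy, was at 14.7, 13.9 and 14.1 CPM in WT and 10.2, 9.78 and 8.92 CPM in KO (log2 -0.56, SE 0.11, edgeR FDR 0.00116). These 3 long members thus stood at 67.8% to 70.1% of WT. Slfn2, which keeps T cells quiescent and protects transfer RNA from stress-induced cutting, was at 244, 248 and 247 CPM in WT and 185, 199 and 192 CPM in KO (log2 -0.36, SE 0.07, edgeR FDR 0.000866), 77.8% of WT.

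The other short and intermediate members were not called. Slfn1, the founding member named for growth arrest of thymocytes, was at 0.557, 0.431 and 0.694 CPM in WT and 0.252, 0.187 and 0.260 CPM in KO. These are 20 to 34 counts against 9 to 13 counts per library, without overlap, and the log2 fold change was -1.26 (SE 0.43, edgeR FDR 0.0607). It was called by DESeq2 (FDR 0.0173). Slfn4, known from macrophages and monocytes, had 7, 8 and 11 counts in WT and 3, 3 and 0 counts in KO (log2 -2.10, SE 1.01, edgeR FDR 0.226). A count of 0 in that KO library allows up to 0.0601 CPM. The unadjusted p was 0.0482. Slfn3, an intermediate member studied in gut epithelium and T cells, overlapped between genotypes at 5.39 to 6.12 CPM in WT and 5.29 to 5.92 CPM in KO (log2 -0.06, SE 0.11, edgeR FDR 0.807).

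In bulk RNA, fewer cells of a type that expresses a gene and less RNA per cell cannot be told apart. Markers of other cells moved with genotype. In untreated KO cells, 7 of 8 basophil or mast cell genes and 6 of 10 stromal genes were higher, with summed levels of 214.7 to 242 against 184 to 189.9 CPM and of 869 to 1121 against 694 to 780.0 CPM. Of 10 plasmacytoid markers, 4 were lower and 1 higher, with sums of 4476 to 4634 CPM in KO and 4937 to 5049 CPM in WT. In all conditions, 1 of these 10 markers is also in the list of interferon-stimulated genes followed below, so the lists are not fully separate. The monocyte gene Ly6c2 was lower in KO, with means of 43.4 CPM there and 117 CPM in WT (log2 -1.43, edgeR FDR 9.68e-13). Lyz2, of the same list, was higher (2390 against 2108 CPM, log2 0.18, edgeR FDR 0.0435), and the sums of that list of 10 overlapped. Conventional type 2 markers summed higher in KO than in WT (1691 to 1823 against 1602 to 1657 CPM). So did T-lineage (100 to 109 against 87.6 to 93.7 CPM) and B-lineage markers (25.3 to 26.3 against 22.6 to 25.2 CPM). Conventional type 1, pan-dendritic and neutrophil sums overlapped. The part of these shifts in the Schlafen differences was not tested.

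After 30 min of OVA, 5 members were lower in KO (Slfn2, Slfn3, Slfn5, Slfn8 and Slfn9), where 12.4% of all genes were called and 6.13% called lower. Slfn8 was at 93.3, 97.8 and 97.9 CPM in WT and 71.3, 56.4 and 59.1 CPM in KO (log2 -0.62, SE 0.10, edgeR FDR 9.84e-05). Slfn5 was at 320.2, 329 and 356 CPM in WT and 238, 211 and 207 CPM in KO (log2 -0.61, edgeR FDR 0.00212), and Slfn9 and Slfn2 had log2 fold changes of -0.61 and -0.31. Libraries of both genotypes were apart for these genes, and how many of all genes were so was not counted. Slfn3 was at 7.78, 6.18 and 6.30 CPM in WT and 5.32, 5.03 and 5.79 CPM in KO (log2 -0.36, SE 0.11, edgeR FDR 0.0347). That call was lost without WT OVA 30 min replicate 1 (log2 -0.25, FDR 0.204), KO OVA 30 min replicate 2 (-0.31, FDR 0.215) or KO OVA 30 min replicate 1 (-0.37, FDR 0.0808). Slfn1 and Slfn4 had log2 fold changes of -0.76 and -0.98 and edgeR FDRs of 0.272 and 0.574. Marker sums moved here too: stromal genes summed to 928 to 1194 CPM in KO and 713 to 743 CPM in WT, plasmacytoid genes to 3943 to 4428 and 4702 to 5099 CPM, and basophil or mast cell genes to 204 to 220.5 and 174 to 185 CPM. Conventional type 2 sums were higher in KO too (1714 to 1779 against 1627 to 1682 CPM). B-lineage sums were higher (24.8 to 25.7 against 21.2 to 22.5 CPM) and neutrophil sums lower (117 to 128 against 130 to 155 CPM). The part of these lists was not tested.

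Neither genotype responded to OVA within 30 min at these genes by this test. Against untreated cells of the same genotype, 0 members were called in WT and 0 in KO by edgeR, and 0 by DESeq2 in either. At an unadjusted p under 0.05 the count was also 0 in both. Of all genes, 10.7% were called in WT and 3.77% in KO, shares that moved by over 1.5 times as single libraries were left out. Member log2 fold changes ran from -0.27 to 0.21 in WT and from -0.13 to 0.84 in KO, with Slfn4, at 0 to 5 counts per KO library, at the upper end.

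The comparison of genotypes after 30 min of Jurkat cells turned on 1 library. With all 3 KO libraries, 0 members were called between KO and WT by edgeR, with 0 by DESeq2 and 0 at an unadjusted p under 0.05, where 9.25% of all genes were called. Slfn5 was at 349.5, 316 and 312 CPM in WT and at 455, 247 and 258 CPM in KO. The first KO library lay above all WT libraries and the others under them (log2 -0.03, SE 0.13, edgeR FDR 0.937). Slfn8 was at 78.1, 73.6 and 70.9 CPM in WT and 88.5, 59.3 and 64.7 CPM in KO, with that order again. Slfn4 had 33 counts in KO replicate 1, against 1 and 6 in the other KO libraries and 7 to 14 in WT. Without KO Jurkat 30 min replicate 1, Slfn5 (log2 -0.37, edgeR FDR 0.00279) and Slfn8 (-0.26, FDR 0.0475) were called lower in KO, with 7.59% of all genes called. Slfn9 then stood at -0.31 (FDR 0.0852), Slfn2 at -0.17 (FDR 0.105), Slfn1 at -0.51, Slfn3 at -0.07 and Slfn4 at -1.55. For Slfn1, Slfn3 and Slfn4 this turned the sign from 0.23, 0.06 and 0.35. Marker sums moved here too. Sums were higher in KO for stromal (1012 to 1105 against 619 to 755 CPM), basophil or mast cell, conventional type 1 and pan-dendritic genes. They were lower for plasmacytoid (4651 to 4731 against 5083 to 5150 CPM), T-lineage (124 to 138 against 147 to 153 CPM) and neutrophil genes. KO replicate 1 had 66.2 CPM of Rubcn, against 79.5 to 82.7 CPM in WT. The part of these lists was not tested.

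The same library set the KO response at 30 min. Against untreated KO cells, Slfn1 (log2 1.37, edgeR FDR 0.024), Slfn4 (2.71, FDR 0.0402) and Slfn5 (0.49, FDR 0.00918) were called higher, where 17% of all genes were called and 8.72% called higher. Without KO Jurkat 30 min replicate 1 these values were 0.63 (FDR 0.386), 0.82 (FDR 0.700) and 0.15 (FDR 0.246), none called, with 11.2% of all genes called. The calls of Slfn1 and Slfn4 were also lost without KO untreated replicate 2 (FDR 0.0893 and 0.075) or 3 (FDR 0.0563 and 0.158), that of Slfn4 without KO untreated replicate 1 (FDR 0.0642), and that of Slfn5 without KO untreated replicate 3 (FDR 0.0512). In WT, Slfn8 was the 1 member called after 30 min of Jurkat cells, and it was lower, at 78.1, 73.6 and 70.9 CPM against 101, 94.6 and 97.0 CPM untreated (log2 -0.39, SE 0.10, edgeR FDR 0.00282), where 28.7% of all genes were called and 14.5% called lower. The other WT members had log2 fold changes from -0.23 to 0.27.

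After 4 h of OVA every member was higher in WT cells, and the part of time in culture was not tested. All 7 were called higher than in untreated WT, where 23.5% of all genes were called and 11.9% called higher, and the median log2 fold change was 0.73 against 0.00 for all genes. Slfn2 went from 244, 248 and 247 to 419, 413 and 395 CPM (log2 0.73, SE 0.07, 1.66-fold, edgeR FDR 6.32e-09). Slfn5 went from 339.6, 316 and 339.7 to 569, 524 and 555 CPM (log2 0.73, edgeR FDR 0.000111). No treated library of these genes reached down to the untreated ones. Slfn1 rose from 20 to 34 counts per library to 69 to 113 counts, or 1.57, 1.62 and 2.09 CPM (log2 1.65, SE 0.28, edgeR FDR 5.99e-05). Slfn4 rose from 7 to 11 counts to 24 to 38 counts (log2 1.77, SE 0.55, edgeR FDR 0.0199), a call lost without WT OVA 4 h replicate 1 (FDR 0.0511) or 3 (FDR 0.0646) or WT untreated replicate 1 (FDR 0.0554) or 2 (FDR 0.0607). Slfn3, Slfn8 and Slfn9 rose by log2 0.51, 0.48 and 0.56.

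In KO cells 5 members were called higher after 4 h of OVA (Slfn1, Slfn2, Slfn5, Slfn8 and Slfn9), where 11.6% of all genes were called and 5.94% called higher. Slfn2 went from 185, 199 and 192 to 261, 274 and 283 CPM (log2 0.51, SE 0.07, edgeR FDR 9.78e-06), and Slfn5 from 246, 225 and 213 to 303, 343 and 328 CPM (log2 0.51, SE 0.13, edgeR FDR 0.00931). Slfn1, Slfn8 and Slfn9 had log2 fold changes of 1.48, 0.31 and 0.38, with edgeR FDRs of 0.0179, 0.0328 and 0.0299. Between 2 and 5 members kept a call as single libraries were left out, and Slfn2 was the member called each time. Slfn8 and Slfn9 lost it without KO OVA 4 h replicate 2 (FDR 0.142 and 0.102) or 3 (FDR 0.0893 and 0.0939) and without KO untreated replicate 2 (FDR 0.104 and 0.0656) or 3 (FDR 0.132 and 0.131). Slfn1 lost it without KO OVA 4 h replicate 1 (FDR 0.0901) or KO untreated replicate 2 (FDR 0.0723), and Slfn5 without KO untreated replicate 3 (FDR 0.0509). Slfn3 (0.20, edgeR FDR 0.253) and Slfn4 (2.28, edgeR FDR 0.145, DESeq2 FDR 0.0467) were not called by edgeR.

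Between genotypes, 6 members were lower in KO after 4 h of OVA and Slfn4 missed the threshold, where 12.6% of all genes were called and 6.35% called lower, and the median log2 fold change was -0.74 against 0.00 for all genes. Slfn2 was at 419, 413 and 395 CPM in WT and 261, 274 and 283 CPM in KO, 66.7% of WT (log2 -0.58, SE 0.07, edgeR FDR 9.57e-07). Slfn5 was at 569, 524 and 555 CPM in WT and 303, 343 and 328 CPM in KO, 59.1% of WT (log2 -0.76, SE 0.13, edgeR FDR 0.000137). For Slfn8 and Slfn9 the KO means were 62.5% and 59.9% of WT (log2 -0.68 and -0.74, edgeR FDR 1.02e-05 and 1.16e-05). No KO library reached a WT library in these 4 genes, a separation that was not counted over all genes. Slfn5 in KO after OVA, at 303 to 343 CPM, overlapped its range in untreated WT cells.

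Slfn1 was the called member with the widest gap, at 1.57, 1.62 and 2.09 CPM in WT and 0.735, 0.601 and 0.609 CPM in KO (log2 -1.43, SE 0.27, edgeR FDR 0.000492). Slfn4 had 24 to 38 counts in WT and 15, 12 and 2 in KO (log2 -1.58, SE 0.54, edgeR FDR 0.0524). It was called with no filter on low counts (FDR 0.0325). Slfn3 was at 8.46, 8.14 and 8.48 CPM in WT and 6.65, 6.66 and 5.95 CPM in KO (log2 -0.38, SE 0.10, edgeR FDR 0.0108), a call lost without KO OVA 4 h replicate 3 (FDR 0.0623). Basophil or mast cell and stromal genes were again higher in KO (7 of 8 and 5 of 10). Conventional type 2 markers summed higher in KO than in WT (1748 to 1836 against 1617 to 1648 CPM). So did T-lineage (92.0 to 97.1 against 82.2 to 84.2 CPM) and B-lineage markers (26.6 to 29.5 against 22.4 to 25.1 CPM). Plasmacytoid (4402 to 4549 against 4889 to 4927 CPM) and neutrophil sums (127 to 130 against 150 to 163 CPM) were lower in KO. The part of these lists was not tested.

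**Figure D2:**
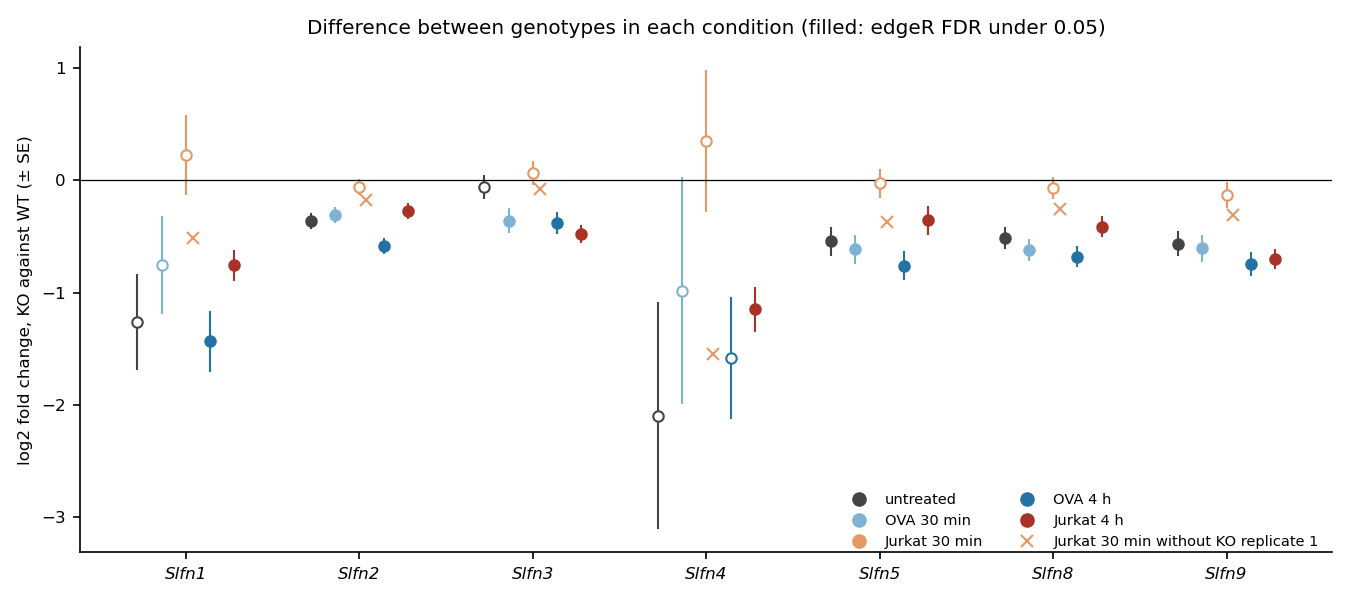
Log2 fold change of KO against WT with its standard error for each Schlafen gene in the 5 conditions, filled where the edgeR FDR is under 0.05, with crosses for Jurkat 30 min without KO replicate 1. Filled points all lie under 0, and the OVA 4 h values of Slfn2, Slfn5, Slfn8 and Slfn9 (-0.58 to -0.76) are the lowest of each of these genes.

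The strongest change of the family followed 4 h with apoptotic Jurkat cells. All 7 members were called higher than in untreated cells in both genotypes, where 79.5% of all genes in WT and 78.5% in KO were called, 38.9% and 37.5% as higher. Their median log2 fold change was 3.31 in WT and 3.17 in KO, against -0.02 and -0.03 for all genes tested. Scaling to total counts in place of TMM moved the median of all genes by -0.40 in WT and -0.34 in KO, and all 7 members stayed called as higher.

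Slfn5 reached 4148, 5003 and 4210 CPM in WT, from 316 to 339.7 CPM untreated (13.4-fold, log2 3.75, SE 0.14, edgeR FDR 5.50e-20), and 3720, 3239 and 3490 CPM in KO (15.3-fold, log2 3.93, SE 0.15). Slfn2 reached 1689, 1846 and 1807 CPM in WT (7.22-fold, log2 2.85, SE 0.07) and 1535, 1415 and 1474 CPM in KO (7.69-fold, log2 2.94). Slfn8 reached 735, 877 and 753 CPM in WT (8.08-fold) and 618, 564 and 593 CPM in KO (8.66-fold). These 3 genes were the most abundant members before and after treatment.

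Slfn9 reached 128, 167 and 129.6 CPM in WT (9.92-fold) and 93.0, 83.9 and 83.8 CPM in KO (9.01-fold), and Slfn3 reached 42.0, 52.8 and 44.0 CPM in WT (7.90-fold) and 35.1, 31.2 and 33.5 CPM in KO (5.93-fold). Slfn1 and Slfn4, near the detection limit in untreated cells, rose by the largest factors. Slfn1 reached 28.6, 39.9 and 30.1 CPM in WT and 19.7, 19.3 and 19.3 CPM in KO (log2 5.86, SE 0.21, and 6.36, SE 0.25). Slfn4 reached 20.2, 35.5 and 23.4 CPM in WT and 11.9, 11.5 and 12.3 CPM in KO (log2 7.13, SE 0.34, and 8.08, SE 0.45). The KO factor of Slfn4 rests on 6 counts in all over the 3 untreated KO libraries. Its groups with at least 10 counts in every library were WT OVA 4 h and Jurkat 4 h of both genotypes. The filter on low counts could keep Slfn4 through these groups, so its being kept is no support for its rise.

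Human Jurkat RNA was present in these cultures, and human reads can align to mouse genes. The summed level of 20 T-lineage markers was 81.6 to 109 CPM in libraries without Jurkat cells, 124 to 153 CPM at 30 min and 173 to 249 CPM at 4 h. Among its genes, Lef1 rose from 0.285 to 38.4 CPM in WT at 4 h and Zap70 from 0.471 to 35.2 CPM. At 30 min Lef1 stood at 17.2 CPM in WT. How much of the 4 h Schlafen counts came from human RNA was not tested. Other marker sums moved with the treatment as well. In WT, conventional type 2 markers went from 1602 to 1657 CPM untreated to 899 to 959 CPM, conventional type 1 from 2832 to 3057 to 1942 to 2075 CPM and basophil or mast cell genes from 184 to 189.9 to 52.2 to 64.9 CPM. Stromal genes went from 694 to 780.0 to 993 to 1127 CPM and pan-dendritic genes from 19617 to 22352 to 35994 to 38142 CPM. The part of these shifts was not tested either.

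**Figure D3:**
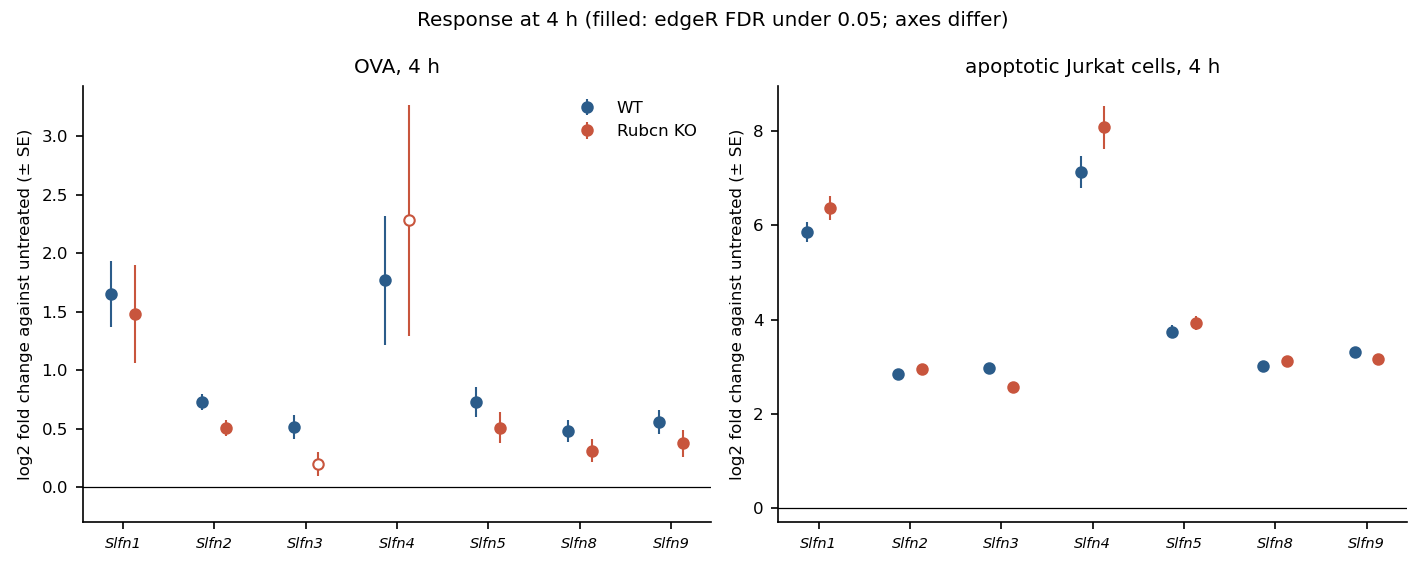
Log2 fold change against untreated cells with its standard error, for 4 h of OVA (left) and 4 h of apoptotic Jurkat cells (right), blue for WT and red for KO, filled where the edgeR FDR is under 0.05; the vertical axes differ. Jurkat cells gave 2.57 to 8.08 and OVA 0.20 to 2.28, and Slfn1 and Slfn4 had the largest values with both.

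After 4 h with Jurkat cells all 7 members were lower in KO than in WT in edgeR, where 22.9% of all genes were called and 13.5% called lower, and the median log2 fold change was -0.48 against -0.01 for all genes. With scaling to total counts 6 of the 7 were called lower, and among all genes called the share called higher moved from 40.9% to 74.8%. DESeq2 called 5 members. The libraries of the genotypes did not overlap for any member. The share of all genes without overlap was not counted, here or in the other comparisons. Slfn4, at 45.1% of WT, had a log2 fold change of -1.15 (SE 0.20, edgeR FDR 0.000136, DESeq2 FDR 0.121). Slfn1 stood at 59.1% (log2 -0.76, SE 0.14, FDR 0.000218), Slfn9 at 61.5% (-0.70, SE 0.09, FDR 2.07e-06) and Slfn3 at 71.8% (-0.48, SE 0.08, FDR 7.89e-05), by edgeR. Slfn8 and Slfn2 stood at 75.1% (-0.41, edgeR FDR 0.0017) and 82.8% (-0.27, edgeR FDR 0.00523) of WT. Slfn5, at 78.2%, had a log2 fold change of -0.35 (SE 0.13, edgeR FDR 0.046). Its call was lost with total-count scaling (-0.27, FDR 0.108), DESeq2 (FDR 0.0678) and the filter of 5 CPM (FDR 0.053). It was also lost without KO Jurkat 4 h replicate 1 (-0.41, FDR 0.0507), 2 (-0.31, FDR 0.161) or 3 (-0.36, FDR 0.0912), or without WT Jurkat 4 h replicate 2 (-0.26, FDR 0.22) or 3 (-0.40, FDR 0.0542). WT Jurkat 4 h replicate 2 was the highest WT library for every member. Its T-lineage sum was the lowest in WT, at 204.9 CPM against 248.7 and 249.4 CPM in replicates 1 and 3. As a group, WT had a higher T-lineage sum (205 to 249 CPM) than KO (173 to 199 CPM) at that time. Basophil or mast cell genes were higher in KO there (8 of 8, summing to 110 to 143 CPM against 52.2 to 64.9 CPM). B-lineage sums were higher in KO too (31.9 to 32.8 against 25.6 to 28.0 CPM). Sums were also higher in KO for stromal (1226 to 1513 against 993 to 1127 CPM) and conventional type 2 markers (1059 to 1125 against 899 to 959 CPM). They were lower for plasmacytoid (4154 to 4643 against 4994 to 5628 CPM) and neutrophil markers (114 to 119 against 145 to 152 CPM). The part of these lists was not tested.

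The difference between genotypes in the response to each treatment was tested as an interaction. By edgeR 0 members were called in any of the 4 interactions, where 0%, 0.00675%, 0.0405% and 4.26% of all genes were called for OVA 30 min, Jurkat 30 min, OVA 4 h and Jurkat 4 h. At an unadjusted p under 0.05 the counts of members were 0, 5, 2 and 1, and DESeq2 called 0, 0, 0 and 1. The 1 was Slfn3 with Jurkat cells at 4 h. Its response in KO minus that in WT was log2 -0.41 (SE 0.13), with an edgeR FDR of 0.0734 and a DESeq2 FDR of 0.0495, and it was called by edgeR without WT Jurkat 4 h replicate 1 (FDR 0.0366). Slfn3 was also the member whose levels overlapped between genotypes untreated and were apart at 4 h. The remaining 6 members had interaction values from -0.14 to 0.95 with Jurkat cells and from -0.22 to 0.51 with OVA at 4 h. The 5 members at 30 min of Jurkat cells (Slfn1, Slfn2, Slfn5, Slfn8 and Slfn9) had values from 0.30 to 1.49, and 0.17 to 0.75 without KO Jurkat 30 min replicate 1, when 0.0333% of all genes were called.

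Jurkat cells and OVA were compared at matched times. At 4 h all 7 members were higher with Jurkat cells in WT (log2 2.12 to 5.36) and in KO (2.37 to 5.79), where 77.5% and 76.4% of all genes were called, 37.2% and 36.3% as higher. At 30 min in WT, Slfn8 (log2 -0.38, edgeR FDR 0.0047) and Slfn2 (-0.19, FDR 0.0485) were lower with Jurkat cells, where 24.3% of all genes were called and 12.3% called lower. Slfn2 was at 247, 231 and 202 CPM with Jurkat cells and 253, 241 and 281 CPM with OVA, which overlap, and its call was lost without WT Jurkat 30 min replicate 2 or 3 or WT OVA 30 min replicate 1 or 3 (log2 -0.21, -0.12, -0.21 and -0.12). In KO, Slfn5 was higher with Jurkat cells at 30 min (0.55, edgeR FDR 0.00714), where 10.2% of all genes were called and 5.3% called higher, and without KO Jurkat 30 min replicate 1 it was not called (0.21, FDR 0.123), with 5.55% of all genes called.

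The 7 members together rose from 679 to 706 CPM in untreated WT libraries to 6791 to 8020 CPM after 4 h with Jurkat cells, and from 485 to 521 CPM to 5364 to 6033 CPM in KO. With OVA at 4 h they summed to 1098 to 1160 CPM in WT and 663 to 728 CPM in KO. The composition shifted towards Slfn5, whose merged exons are the longest of the family at 6.035 kb. It held 47.6% ± 0.879 of the members' counts in untreated WT and 61.2% ± 1.11 after 4 h with Jurkat cells (SD, n = 3), while Slfn2 went from 35.4% ± 1.01 to 24.6% ± 1.43. In KO the shares went from 45.2% to 61.1% for Slfn5 and from 38.1% to 25.9% for Slfn2. OVA at 4 h left Slfn5 at 48.8% in WT and 46.2% in KO. These are shares of counts, which scale with message length.

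Genes of the interferon pathway were followed as fixed lists, which were chosen with earlier results of these data known, so that their direction is no independent evidence. Of 40 interferon-stimulated genes, 37 were lower in KO in untreated cells, 32 at OVA 30 min, 14 (with 2 higher) at Jurkat 30 min, 40 at OVA 4 h and 28 at Jurkat 4 h. Their median log2 fold changes were -0.77, -0.72, -0.11, -0.91 and -0.46, and those of the 7 Schlafen genes were -0.54, -0.61, -0.03, -0.74 and -0.48. Without KO Jurkat 30 min replicate 1, an alternative chosen after seeing the data, 31 of the 40 were lower at Jurkat 30 min and 0 higher, with a median of -0.47, and the Schlafen median was -0.31. By the rule for named genes, Ifi44 (25.7 ± 3.99 CPM in WT and 2.93 ± 0.225 CPM in KO, SD, n = 3) and Rtp4 (25.2 ± 2.10 and 8.81 ± 0.961 CPM) were among the lowest p in untreated cells. After 4 h with Jurkat cells 40 of 40 rose in WT with a median of 3.83, and 38 of 40 after OVA with a median of 0.88.

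Among 10 receptors and signalling genes, 3 were lower in untreated KO and 1 was higher. Irf9, a transcription factor subunit of the interferon pathway, was among the lower ones (log2 -0.35). Interferon ligands were at 0 counts in untreated KO for all 6 genes and in WT for 5 of 6. After 4 h with Jurkat cells the 5 ligands tested rose in both genotypes and were lower in KO, with Ifnb1 at 12.5 ± 3.09 CPM in WT and 3.68 ± 0.440 CPM in KO and a median KO against WT of -1.77. After 4 h of OVA, Ifnb1 was at 0.149 ± 0.0824 CPM in WT.

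**Figure D4:**
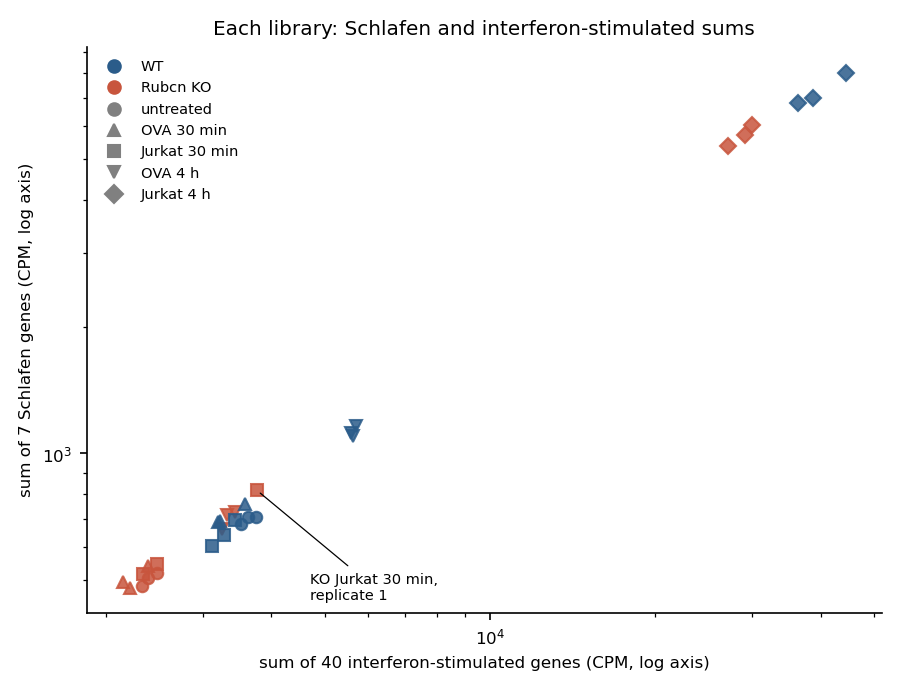
Sum of the 7 Schlafen genes against the sum of 40 interferon-stimulated genes in each of 30 libraries (CPM, log axes), blue for WT and red for KO, with a symbol for each condition. The libraries fall along 1 band. KO Jurkat 30 min replicate 1 (817 CPM, 3765 CPM) lies above its own replicates (516 and 546 CPM). It also lies above every untreated or 30 min WT library, which reached 758 CPM (Schlafen) and 3746 CPM (interferon-stimulated).

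In the plot of sums, KO Jurkat 30 min replicate 1 was high for both groups of genes at once. The points share libraries and scaling, and the groups given Jurkat cells for 4 h lie far from the rest, so no correlation is given.

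Pattern likeness was measured as the root mean square difference between centred log2 means (CPM plus 1) over the 10 groups, where 0 is an identical pattern. Within the family, Slfn8 and Slfn9 were nearest each other (0.09), followed by Slfn1 and Slfn4 (0.16) and Slfn2 and Slfn8 (0.17), while Slfn1 and Slfn3 were furthest apart (0.65). Outside it, the 3 nearest genes of Slfn2 were Tor3a, Parp9 and Parp10, those of Slfn5 were Herc6, Ifi47 and Parp12, and those of Slfn8 were Irgm1, Nlrc5 and Dhx58. Slfn9 was nearest to Nlrc5, A530064D06Rik and Dhx58, and Slfn3 to Axl, Il15ra and Swap70. For the low members these were Tnfsf10, Il27 and Casp4 (Slfn1) and Il27, Tnfsf10 and Hspa1b (Slfn4). Of the 17 distinct genes named, 5 are in the interferon-stimulated list. Without the groups given Jurkat cells for 4 h, 0 to 2 of each 3 neighbours remained, so that these names rest largely on that response. With 0.1 CPM added in place of 1, Slfn1 and Slfn4 kept 0 of their 3 neighbours and the other members 2 or 3, so that the names given for these low genes depend on the added value.

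The members lie between 82952102 and 83215154 on chromosome 11 (mm10), a span of 263.053 kb, in the order Slfn5, Slfn9, Slfn8, Slfn2, Slfn1, Slfn4 and Slfn3. Slfn8 and Slfn9 are on the minus strand and the others on the plus strand. Within that span and 250 kb to either side, 17 genes outside the family were tested. Of these, 0 were called in KO against WT untreated (by edgeR), and 1, 0, 1 and 3 in OVA 30 min, Jurkat 30 min, OVA 4 h and Jurkat 4 h. Of all genes, 9.97%, 12.4%, 9.25%, 12.6% and 22.9% were called in the same comparisons, in that order. With Jurkat cells at 4 h in WT, 7 neighbours rose and 7 fell, where 79.5% of all genes were called and 38.9% called higher. The median log2 fold change of the neighbours was 0.01 against 3.31 for the members. AI662270, next to Slfn3 and at 192 CPM over all libraries, rose by 0.93, and Rad51d, a DNA repair gene, fell by 1.36 on the log2 scale.

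**Figure D5:**
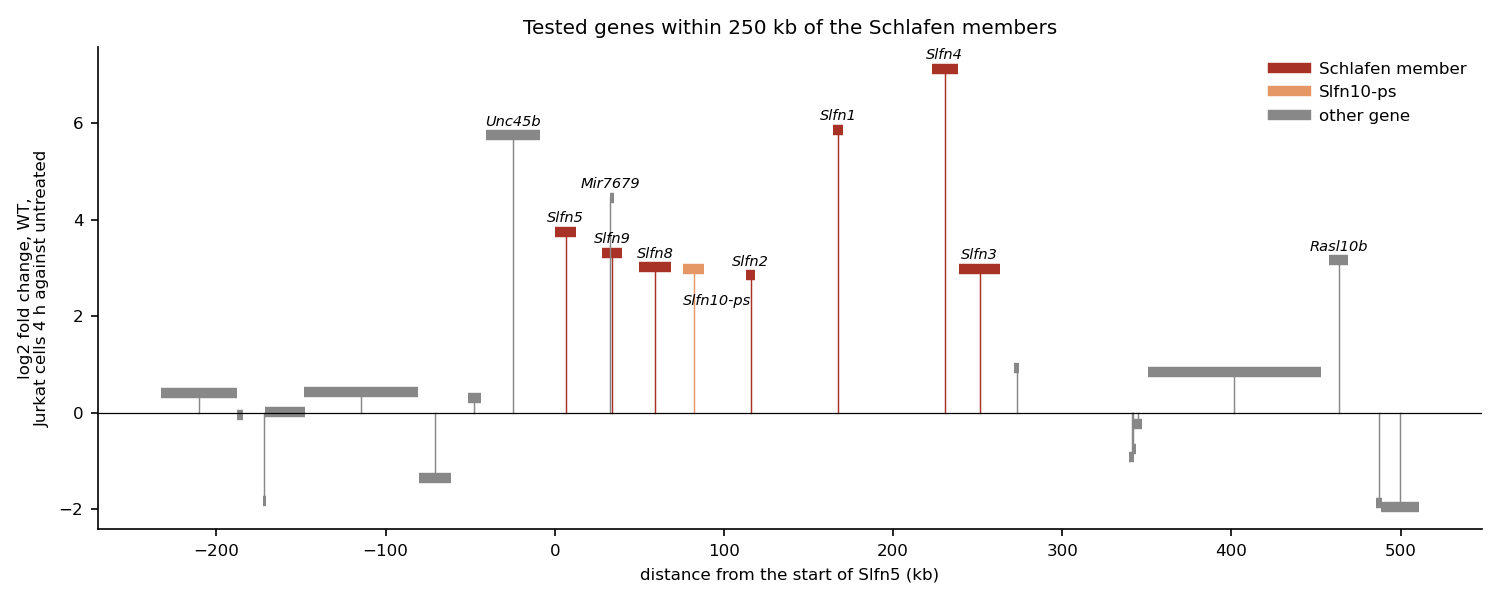
Map of the tested genes within 250 kb of the Schlafen members: horizontal bars show each gene's extent as distance from the start of Slfn5 in kb, at the height of its log2 fold change in WT after 4 h with Jurkat cells. The 7 members (2.85 to 7.13) and Slfn10-ps (2.99) form a block above genes on both sides, with Unc45b, Mir7679 (inside Slfn9) and Rasl10b, each under 1 CPM on average, also high.

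Near-identical sequence limits how reads can be assigned. Coding sequences of Slfn8 and Slfn9, 910 codons each, were 92.7% identical over 2730 aligned bases, and those of Slfn3 and Slfn4 (640 and 602 codons) 91.6% over 1779. Slfn5, with 884 codons, was 60.3% identical to Slfn8, and Slfn1 and Slfn2 (337 and 378 codons) were 69.0% identical to each other. Of all 50-base windows of the annotated transcripts, 14.6% in Slfn8, 11.9% in Slfn9, 16% in Slfn3 and 11.3% in Slfn4 also occurred in another gene. For Slfn2 this was 4.27% and for Slfn1 0.606%. In Slfn5 it was 11.1%, mostly windows shared with the overlapping antisense gene Slfn5os. How the counting split reads of such windows is not given in the sources used here, so that values of these members are uncertain to that extent. Slfn3 and Slfn4, 91.6% identical in coding sequence, stood at 1.72 and 0.0465 CPM per kb in untreated WT cells.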

How the data were processed

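RNA-seq was made from 30 libraries (3 in each of 10 groups) per the labels' protocols with the TruSeq RNA kit v2, which does not mark strand. The authors deposited raw read counts per gene; per the submitters' processing notes, STAR 2.5, Subread, featureCounts 1.5.0-p1, DESeq2 and mm10 were named, without roles, annotation or handling of shared reads. Counts of all 30 libraries were fitted together in edgeR 4.0.16 (R 4.3.3, TMM scaling, filterByExpr by group, quasi-likelihood test on group means, 21 contrasts). P-values were adjusted by Benjamini-Hochberg over 14808 genes, which hold 99.99% of counts, and called at an FDR under 0.05. Standard errors are the log2 fold change over the square root of F. Levels are CPM on TMM-scaled sizes. The test was checked on simulated data, with changes planted only in genes of higher counts and the same spread for all genes. That check does not cover counts as low as those of Slfn1 and Slfn4 in untreated cells. Alternatives were DESeq2 1.42.0, other scalings and filters, fits of the compared groups only, replicate blocks, and each library left out. Gene extents were the mm10 coordinates supplied with the deposited counts. Exons for the lengths and transcript sequences came from GENCODE M21 (GRCm38, the same build as mm10), and alignments from Biopython 1.88. The members and lists were chosen with earlier results of these data known. Named list genes were up to 3 of each list with the smallest p, among genes called and of at least 5 CPM in the higher group, for KO against WT untreated and for WT Jurkat 4 h against untreated; the level of Ifnb1, nearest genes by likeness and locus neighbours were named too. Counting error only is covered by limits set from 3 counts. The values of 1 list gene are not reported here.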

Additional observations from a re-analysis of the deposited data

How the results depend on the processing

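Of 98 single-member fold changes, 759 values under other settings kept their side of the threshold, 9 became called and 12 lost the call. Fitting only the compared groups left 0 members called (from 3) in KO after 30 min of Jurkat cells, 2 (from 1) in WT, and 0 (from 1) for Jurkat cells against OVA at 30 min in KO. Over all genes it called 1460 against 2514, 734 against 1514 and, for KO against WT at Jurkat 30 min, 891 against 1370; for OVA at 30 min, 246 against 558 in KO and 833 against 1578 in WT; and 337 against 631 in the Jurkat 4 h interaction. DESeq2 called 22 genes against 1 in the Jurkat 30 min interaction and 25 against 6 in that of OVA 4 h. For Jurkat cells against OVA at 30 min in WT, 1 member (from 2) was called with the 5 CPM filter. Same-numbered libraries had a mean correlation of deviations of 0.013, against -0.006 for other numbers. Same-numbered KO and WT libraries of a condition ran from -0.215 to 0.341, with 5 of 15 pairs over 0.1. The averages cannot show whether libraries were paired within a condition. A replicate block, across all groups or within genotype, gave 1 member for Jurkat cells against OVA at 30 min in WT. DESeq2 called 1 member (from 0) in the Jurkat 4 h interaction.

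Leaving out single libraries gave 0 to 4 members called for KO Jurkat 30 min, 0 to 2 for Jurkat cells against OVA at 30 min in KO, 1 to 3 in WT, 0 to 2 for KO against WT at Jurkat 30 min, 2 to 5 for KO OVA 4 h, and 0 to 1 for the Jurkat 30 min interaction (1 without KO Jurkat 30 min replicate 2) and the Jurkat 4 h interaction. At Jurkat 30 min, KO against WT ran from -0.51 to 0.65 for Slfn1, -0.17 to 0.012 for Slfn2, -0.072 to 0.14 for Slfn3, -1.55 to 0.91 for Slfn4, -0.37 to 0.13 for Slfn5 and -0.26 to 0.047 for Slfn8, so that their signs are not fixed. The OVA 4 h interaction of Slfn4 ran from -0.057 (without KO untreated replicate 3) to 0.92. The cause was not tested. Counts over all genes moved by over 1.5 times too: KO against WT called 898 to 1357 untreated (from 1477), 718 (without KO OVA 30 min replicate 2) to 1792 at OVA 30 min (from 1834), 708 to 1158 at Jurkat 30 min (from 1370), 1172 to 1709 at OVA 4 h (from 1861) and 2189 (without WT Jurkat 4 h replicate 2) to 3102 at Jurkat 4 h (from 3392). Against untreated, OVA 30 min called 173 (without KO OVA 30 min replicate 2) to 710 in KO (from 558) and 903 (without WT OVA 30 min replicate 1) to 1847 in WT (from 1578), and in KO OVA 4 h called 1105 to 1382 (from 1722) and Jurkat 30 min 1674 to 2369 (from 2514). Jurkat cells against OVA at 30 min called 832 to 1592 of all genes in KO (from 1514) and 2596 to 3520 in WT (from 3591). The interactions called 0 to 81 of all genes at Jurkat 30 min (from 1) and 362 to 637 at Jurkat 4 h (from 631). Slfn1 and Slfn4 were limited by depth outside the 4 h Jurkat groups, and Slfn4 was left untested in 9 fits of the compared groups.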

Other observations

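Slfn10-ps, a pseudogene between Slfn8 and Slfn2 on the same chromosome, was counted apart from the members. It was called higher after 4 h with Jurkat cells by log2 2.99 in WT and 2.69 in KO (edgeR). Against WT, KO values were -0.01 untreated, -0.40 at OVA 30 min (edgeR FDR 0.0355), 0.25 at Jurkat 30 min, -0.42 at OVA 4 h (FDR 0.00914) and -0.31 at Jurkat 4 h (FDR 0.00987). Slfn14, known from platelets and red cell precursors, had 0 to 10 counts per library, and Slfn5os, antisense to Slfn5, had 0 to 7. Neither was tested.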
